A study of Homo sapiens with 8 samples.

Results

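Clusters of distal accessible regions were described in HUDEP-2 cells, an immortalised human erythroid precursor line that depends on the Kit receptor for growth. The peak lists of 4 ATAC-seq libraries were merged wherever peaks shared 1 bp, which gave 43569 regions on 24 chromosomes. Of these, 22355 were overlapped by a peak of every list and 9069 of those were distal, with a midpoint over 1 kb from any annotated transcription start site. Distal neighbours whose edges lay at most 12500 bp apart were chained, and the 206 regions in chains of 4 or more were kept as members. They formed 46 chains and made up 2.27% of the distal regions called in all 4 libraries. Peak presence in all 4 lists and position chose them, so neither is a finding here.

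ATAC-seq uses a transposase to cut open chromatin and tag the fragments. The cells carried a control guide RNA (sgControl), grew without growth factors for 5 h, and then received stem cell factor (SCF), the ligand of Kit, at 50 ng/ml or phosphate-buffered saline (PBS) for 1 h. Each library started from 50000 cells, with 2 libraries per treatment. The methods call the libraries biological duplicates but do not say whether these were separate cultures. If they were not, the p-values given measure only the spread between libraries. The matching samples with a guide against EGR1 were not analysed here. All 4 libraries share 1 cell line, the same guide and the same deprivation, and the comparison asks what SCF changes within 1 h.

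The lists held 30240 and 33616 peaks in PBS replicates 1 and 2, and 29269 and 33324 in SCF replicates 1 and 2. Total reads are unknown. Of 9 erythroid marker genes, 7 had a region within 1 kb of a start site called in all 4 libraries, among them GATA1, KLF1 and TAL1, whereas ALAS2 had one in 1 library and HBG1 in 0. Lymphoid or myeloid markers had such a region for 4 of 7 genes (EBF1, CD14, CSF1R and SPI1), and the 4 markers of tissues other than blood had none in any library. Accessible chromatin near a start site is not expression, and the part of other cell types was not tested.

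Enhancers are stretches of DNA, often far from a promoter, where transcription factors bind and raise the transcription of a gene. In some loci several enhancers lie close together and act on one gene, and such clusters are known to control genes of cell identity. The locus control region of the beta-globin genes is the textbook case in red cell precursors. Open chromatin alone does not say that a region is an enhancer. GATA1, the main erythroid transcription factor, binds words that contain GATA, and AP-1, a dimer of Fos and Jun proteins induced by growth factor signals, binds a palindrome of 7 bases.

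Sequences around the summit of 8 members are shown because the results below turn on them: a member at the beta-globin locus, members at GFI1B, FOXO3 and PLIN2, and 3 of the members whose ranks are compared between treatments, at HBS1L, JAZF1 and E2F2. Each is the hg19 (GRCh37) plus strand, 121 bases centred on the summit of the highest-ranked peak. Capitals mark the GATA word, AGATAA or the same with T as its first base. They also mark words for AP-1, whose letters are TGANTCA, and for RUNX, spelled below with the other words searched. Words on the minus strand appear as their reverse complement.
Beta-globin chain region 2, chr11:5301926-5302046: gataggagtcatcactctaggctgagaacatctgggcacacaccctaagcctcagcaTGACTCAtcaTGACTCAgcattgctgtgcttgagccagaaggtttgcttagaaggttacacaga
GFI1B chain region 1, chr9:135860281-135860401: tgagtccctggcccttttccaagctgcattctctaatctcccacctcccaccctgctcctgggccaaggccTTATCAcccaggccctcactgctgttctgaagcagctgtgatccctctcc
GFI1B chain region 3, chr9:135874693-135874813: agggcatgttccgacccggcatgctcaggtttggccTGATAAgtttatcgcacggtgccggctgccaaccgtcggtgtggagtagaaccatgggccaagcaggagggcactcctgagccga
FOXO3 chain region 2, chr6:108899878-108899998: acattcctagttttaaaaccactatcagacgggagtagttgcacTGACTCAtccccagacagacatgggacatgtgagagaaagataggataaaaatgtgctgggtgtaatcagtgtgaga
PLIN2 chain region 1, chr9:19154303-19154423: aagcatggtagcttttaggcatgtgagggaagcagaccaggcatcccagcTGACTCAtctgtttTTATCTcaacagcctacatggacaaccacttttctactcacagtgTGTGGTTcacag
HBS1L chain region 1, chr6:135410471-135410591: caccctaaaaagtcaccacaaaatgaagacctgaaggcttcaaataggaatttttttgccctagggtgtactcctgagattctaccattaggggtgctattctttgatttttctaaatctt
JAZF1 chain region 4, chr7:28240343-28240463: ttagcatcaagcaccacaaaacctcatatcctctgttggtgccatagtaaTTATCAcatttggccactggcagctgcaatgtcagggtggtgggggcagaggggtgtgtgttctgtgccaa
E2F2 chain region 1, chr1:23840767-23840887: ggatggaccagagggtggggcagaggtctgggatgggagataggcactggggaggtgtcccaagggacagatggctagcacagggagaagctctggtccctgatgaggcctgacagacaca
Region 2 of the beta-globin chain held a pair of AP-1 words, and PLIN2 region 1 held a GATA word, an AP-1 word and a RUNX word. The 121 bases shown for HBS1L region 1 and E2F2 region 1 held none of these words, but the 201 bp window used for the counts held a GATA word at HBS1L region 1.

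The 46 chains lay on 18 chromosomes. There were 31 chains of 4 regions, 10 of 5, 4 of 6 and 1 of 8. By comparison, 6772 distal regions had no neighbour within the distance, 1620 were in pairs and 471 in chains of 3. The chains spanned 12.48 to 56.8 kb, with a median of 25.8 kb, and a median of 13.1% of a span was covered by its members. Neighbours inside a chain were a median of 6.68 kb apart, against 83.6 kb over all distal neighbours. At the limit of the rule, the longest gap inside a chain was 12.363 kb and the nearest distal region outside a chain was 12.978 kb away. Members closest to a start site lay 1040 bp from it, and 5 members lay within 1.2 kb. Members were in introns in 131 cases, between genes in 66 and over an exon in 9. The share in introns was 63.6% of members and 59.1% of the other distal regions.

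The longest chain lay inside GSE1, a gene for a chromatin-associated protein, at chr16:85380790-85437570. Its 8 regions spanned 56.8 kb, all in introns, between 178 and 234 kb downstream of the annotated start of the gene. The next 4 chains held 6 regions each. One lay between DDIT4, a stress-response gene that restrains mTOR signalling, and DNAJB12, which encodes a co-chaperone, at chr10:74050578-74092406. One lay beside TRIM7, a gene for a ubiquitin ligase, at chr5:180587342-180616178. One covered the beta-globin locus control region at chr11:5296785-5325518, where the annotated models of HBG2, HBE1 and the olfactory receptor genes OR51B4 and OR51B5 overlap. One lay beside ZSWIM4 at chr19:13944226-13967755 and overlapped MIR23AHG, the host of MIR23A and MIR27A.
Of the chains with 5 regions, 5 had the longest spans. They lay 35.5 kb from ZFP36L2, which encodes an RNA-binding protein that promotes mRNA decay, over MYMK and ADAMTSL2, 50.3 kb from CTSL, the gene of the lysosomal protease cathepsin L, over GMPPA, ASIC4 and CHPF, and inside PTK2B, which encodes a focal adhesion kinase family member.

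**Figure D1:**
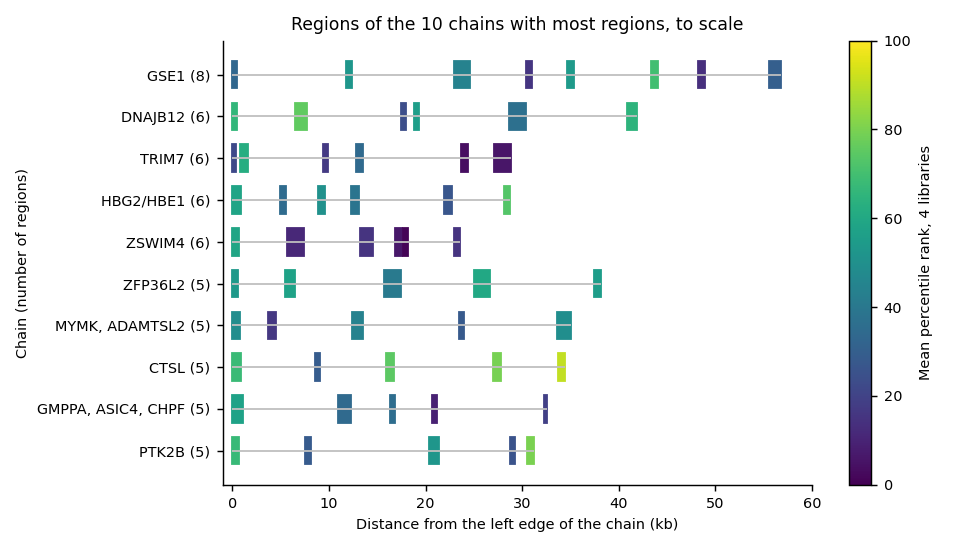
Members of the 10 chains with most regions, drawn to scale as boxes along the distance in kb from the left edge of each chain, coloured by mean percentile rank over the 4 libraries. The GSE1 chain is the longest at 56.8 kb, and boxes of high and low rank lie side by side within most chains.

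Protein-coding genes whose annotated body overlapped a chain numbered 43 of 20136 (0.214%), in 31 chains, and 15 chains overlapped none. Among 27 erythroid transcription factor genes, 4 were overlapped: GFI1B, a repressor needed for erythroid and megakaryocytic development, FOXO3, a factor of the oxidative stress response in maturing red cells, ZFPM1, which encodes FOG1, the cofactor of GATA1, and E2F2, a cell cycle factor. Among 22 globin and heme genes, HBG2 and HBE1 were overlapped, both by the beta-globin chain. The lists for iron (10 genes), the red cell membrane (27), Kit and EPO signalling (44), immediate early genes (32), megakaryocytes (11), myeloid and mast cells (15), lymphoid cells (11) and other tissues (10) had 0 genes overlapped. These lists were drawn up with other results of the same data known, so their counts are a description.
Nearby genes that no chain overlapped included MYB, the proliferation factor of erythroid progenitors. The HBS1L chain crossed the start of HBS1L, and its regions lay 91.9, 84.0, 71.0 and 62.9 kb upstream of the annotated MYB start. Region 1 of the NPRL3 chain lay 57.7 kb upstream of HBZ, the embryonic alpha-like globin gene.

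Accessibility within a list was read as the percentile rank of a region by fold enrichment, the ratio of fragments at the summit to the local background (100 is the highest in the list). Fragments here are units of the peak caller's pileup. The sources used here do not say whether these were whole fragments or cut ends. The median mean rank over the 4 libraries was 45.1 for members and 51.3 for the other 8863 distal regions. Ranks over 75 were held by 9.71% of members and 15.7% of the other distal regions, and ranks under 25 by 19.9% and 10.6%. The order turned when peaks were ranked by their p-value. The median rank by p of members was then 51.4 and 57.9 in PBS and 50.1 and 57.2 in SCF, against 47.6, 52.6, 45.6 and 53.0 for the other distal regions. Both parts of the ratio differed. The median summit pileup of members was 27 and 39.5 fragments in PBS and 26 and 28 in SCF, and that of other distal regions was 20, 26, 19 and 20. The median local background of members was 3.13 and 4.47 fragments in PBS and 3.03 and 3.15 in SCF, and that of other distal regions was 1.78, 2.61, 1.68 and 1.74. By the median, members thus had more fragments at the summit and more around it in each of the 4 libraries. A local background over 2 times the median of the other distal regions was found for 93 members (45.1%) and for 17.4% of the other distal regions. Copy number and the settings of the peak caller, which are not given in the sources used here, were not tested.

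The chains differed in this respect. Mean local background, relative to the median of other distal regions, was 5.44 in the ZSWIM4 chain, 5.43 in the GFI1B chain and 4.83 in the ZFPM1 chain, and 0.953 in the PLIN2 chain. Region 2 of the ZFPM1 chain at chr16:88521686-88522836 had summit pileups of 59 and 74 fragments in PBS and 60 and 50 in SCF, yet ranked at 0.800, 0.568, 0.929 and 0.432 by fold enrichment. In this member a low rank by fold enrichment was thus not a low number of fragments, whereas region 1 of the HBS1L chain combined PBS ranks of 5.82 and 2.64 with pileups of 11 and 13.

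By fold enrichment, the chains with the highest mean rank were those beside CTSL (68.3), over NANOS3 and BRME1 (60.7), beside PLIN2 (60.5), beside TMEM106A (59.5) and at DNMT3A (59.1). PLIN2 encodes a lipid droplet coat protein and DNMT3A a DNA methyltransferase. The lowest were at ZSWIM4 (18.0) and ZFPM1 (21.8). Ranking by p gave another order, with NANOS3 and BRME1 (70.9), GFI1B (65.7) and PTMA (65.7) at the top and SLC7A10 (36.7) and MLXIP (36.8) at the bottom. By p, CTSL stood at 59.0, DNMT3A at 53.2, PLIN2 at 51.7 and ZSWIM4 at 46.1. Within a chain the regions were far from alike. Mean ranks inside 1 chain ranged over a median of 46.0 points, from 19.0 in the most even chain to 79.0 in the least even one. The SD of mean rank was 21.8 over all members and 20.2 within chains. At DNMT3A, region 3 ranked at 97.2 and 97.8 in PBS and 96.9 and 95.7 in SCF, whereas region 4 ranked at 45.2, 38.8, 11.0 and 44.9. The member with the highest mean rank was region 1 of the chain at DNAJB1 and TECR, with ranks of 96.4, 98.6, 97.7 and 99.5. DNAJB1 encodes a heat shock co-chaperone.

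At the beta-globin locus, region 2 of the chain, with the pair of AP-1 words, ranked at 35.2 and 30.6 in PBS and 43.2 and 29.6 in SCF. Region 3 ranked at 50.7, 50.2, 51.2 and 49.2. Treatments overlapped for all 6 regions of this chain, and its library means were 47.8 and 46.5 in PBS and 47.1 and 46.3 in SCF. In the HBS1L chain, region 3 ranked at 94.1 and 94.6 in PBS and 76.7 and 95.1 in SCF, so that SCF replicate 1 alone stood apart. SCF replicate 1 was again the lowest at region 2, with 91.3 and 69.9 in PBS and 40.2 and 87.5 in SCF.

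**Figure D2:**
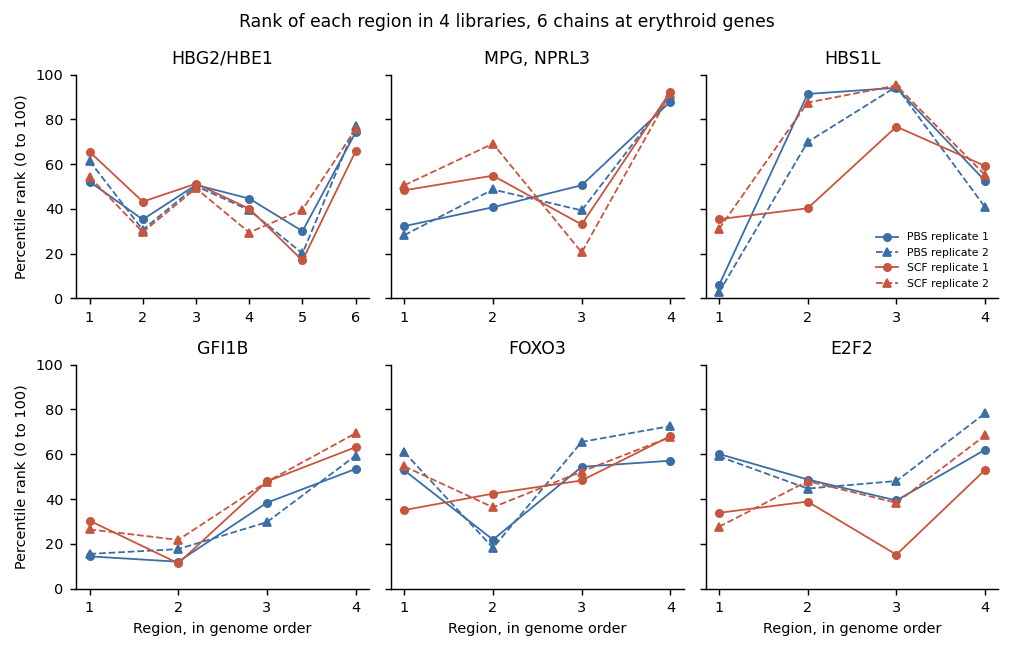
Percentile rank by fold enrichment (0 to 100) of each region of 6 chains at erythroid genes, in genome order, with 1 line per library (blue PBS, red SCF; circles replicate 1, triangles replicate 2). Lines of the beta-globin chain lie close together, region 1 of HBS1L and of GFI1B is higher in both SCF libraries, and region 1 of E2F2 is lower in both.

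SCF and PBS were compared first over the chained regions as a set. The median member rank was 45.2 and 46.9 in PBS and 45.0 and 51.6 in SCF, that is, 46.0 ± 1.21 and 48.3 ± 4.69 (SD, n = 2 each). The treatments overlapped, and the difference of 2.22 points had a two-sided exact permutation p of 1, where 2 against 2 libraries cannot go below 0.333. The sign of this difference turned without PBS replicate 1 (-1.35) or without SCF replicate 2 (-1.61). Members with a higher SCF mean numbered 109 of 206 (52.9%), against 50.3% of the other distal regions.

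A rank gain was called where the lower SCF rank was higher than the higher PBS rank by 10 points or more, and a rank loss where the reverse held. Rank gains were called at 2.56% of all regions called in the 4 libraries (572 regions) and at 19 members (9.22%). Rank losses were called at 3.04% of all such regions and at 12 members (5.83%). Among the other distal regions the shares were 4.41% and 4.19%, and regions near start sites, whose median ranks ran from 71.5 to 75.03 in the 4 libraries, had 1.22% and 2.23%. By mean rank, gains among members and other distal regions were 14.6% and 4.14% under rank 25, 10.3% and 5.69% from 25 to 50, 5.97% and 4.00% from 50 to 75, and 5.00% and 2.52% above 75. Losses in the same bands were 4.88% and 4.14%, 8.97% and 6.23%, 4.48% and 3.38%, and 0% and 1.22%. The members numbered 41, 78, 67 and 20 in these bands. The median absolute difference between replicates was 7.38 points in PBS and 8.06 in SCF for members, and that between treatment means was 8.01. For the other distal regions these values were 9.48, 10.6 and 7.41. A mean of 2 libraries varies less than a single library, so the treatment and replicate differences are not on the same scale.
With 1 library left out at a time, members were chosen anew from the other 3, where fewer libraries have to stand apart. Without PBS replicate 1, 284 members gave 32 gains and 38 losses, and without PBS replicate 2, 235 gave 42 and 22. Without SCF replicate 1, 297 members gave 49 gains and 29 losses, and without SCF replicate 2, 226 gave 30 and 45. Ranking by p instead of fold enrichment gave 12 gains and 8 losses among the 206 members. Shares over all regions were not computed for these alternatives, so their counts cannot be set against a background.

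No region passed the limma test on fold enrichment. In a fit over all 22355 regions with Benjamini-Hochberg adjustment, limma called 0 regions and 0 members, with a lowest adjusted p of 0.700. At an unadjusted p under 0.05 it gave 1518 regions (6.79%) and 29 members (14.1%), of which 17 were higher and 12 lower in SCF. The gains and losses below are therefore descriptions of ranks that did not overlap between treatments, and the adjusted p of the 31 called members in the limma fit ran from 0.700 to 0.803.

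**Figure D3:**
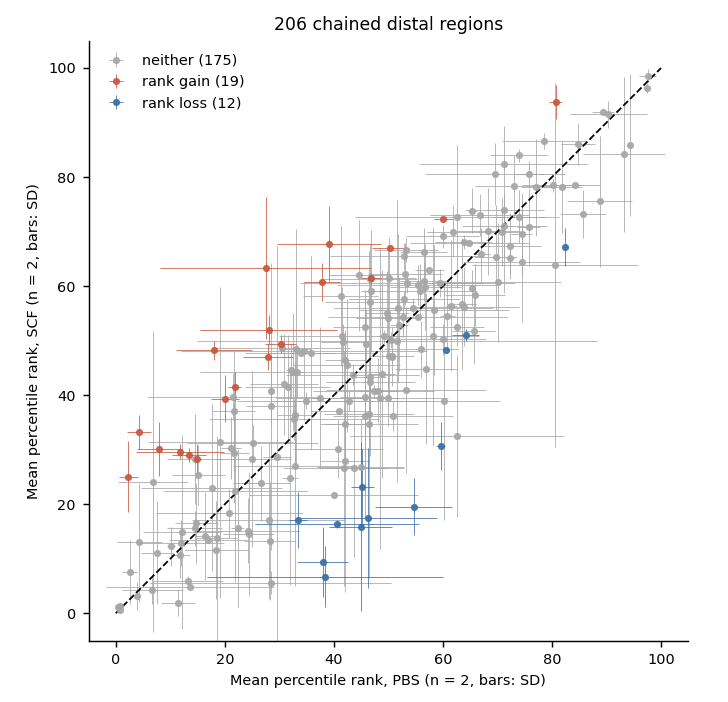
Mean percentile rank in SCF against mean percentile rank in PBS for the 206 members (points, with SD bars, n = 2 each; dashed line, equal ranks). The 19 rank gains (red) lie mostly at PBS ranks under 50, the 12 rank losses (blue) lie below the line, and many grey points have bars as long as their distance from the line.

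By the gap between the nearest libraries of the treatments, the largest gain was at HBS1L region 1, chr6:135410151-135410718, in an intron of HBS1L and 91.9 kb upstream of MYB. It ranked at 5.82 and 2.64 in PBS and 35.4 and 31.0 in SCF, with summit pileups of 11, 13, 19 and 16 fragments. Both SCF libraries were above both PBS libraries by 25.1 points, and the log2 difference in fold enrichment was 0.69 ± 0.16 (SE; limma adjusted p = 0.700). The other 3 regions of that chain were not called. By the difference of treatment means, the largest gain was at DNMT3A region 2, which ranked at 13.9 and 41.2 in PBS and 54.2 and 72.6 in SCF. Its means differed by 35.8 points, against 28.9 at HBS1L region 1, but its replicates lay far apart and its gap was 12.9 points. Its log2 difference was 0.79 ± 0.20 (SE; limma adjusted p = 0.700).
Region 1 of the GSE1 chain ranked at 13.1 and 22.9 in PBS and 46.9 and 49.5 in SCF, a gap of 24.0 points. Region 3 of the longer of the MTSS1 chains ranked at 40.2 and 35.5 in PBS and 63.2 and 58.3 in SCF. JAZF1 region 4, 19.99 kb upstream of the annotated start of JAZF1, a gene for a zinc finger corepressor, ranked at 32.3 and 45.8 in PBS and 62.9 and 72.6 in SCF. SERINC5 region 1 ranked at 21.0 and 22.7 in PBS and 39.7 and 43.5 in SCF. In each of these members the SCF libraries were above the PBS libraries, and pileups in the GSE1 and SERINC5 members were under 20 fragments in every library.

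Gains were also called at members of chains at erythroid genes and at a member of the PLIN2 chain. GFI1B region 1, in an intron 41.0 kb downstream of the outermost annotated start of the gene, ranked at 14.4 and 15.5 in PBS and 30.3 and 26.4 in SCF. Another protein-coding start site of GFI1B lay inside the chain. FOXO3 region 2, in an intron and with an AP-1 word, ranked at 21.8 and 18.2 in PBS and 42.4 and 36.3 in SCF. The other 3 regions of the FOXO3 chain overlapped between treatments or were lower in SCF. Among them, region 4 also held an AP-1 word and ranked at 57.1 and 72.6 in PBS and 68.1 and 67.7 in SCF. Region 1 of the NPRL3 chain ranked at 32.3 and 28.2 in PBS and 48.3 and 50.5 in SCF. PLIN2 region 1, with words for GATA, AP-1 and RUNX, ranked at 79.8 and 81.5 in PBS and 91.5 and 96.0 in SCF, with a gap just inside the rule. GFI1B region 3, with a gap of 9.38 points, was just outside it: it ranked at 38.4 and 29.7 in PBS and 47.8 and 47.7 in SCF.

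By the gap, the largest losses were at CCDC88C region 1 and E2F2 region 1. CCDC88C region 1, in an intron, ranked at 49.6 and 59.6 in PBS and 23.3 and 15.9 in SCF, a gap of 26.4 points with summit pileups of 14, 23, 9 and 7 fragments. E2F2 region 1, in an intron 16.9 kb downstream of the annotated start, ranked at 60.1 and 59.0 in PBS and 33.8 and 27.6 in SCF, with pileups of 20, 27, 11 and 9 fragments. Its log2 difference was -0.59 ± 0.16 (SE; limma adjusted p = 0.700). Region 3 of the DNAJB12 chain ranked at 41.2 and 34.7 in PBS and 4.87 and 13.9 in SCF. Region 2 of the chain over GMPPA, ASIC4 and CHPF ranked at 43.7 and 46.7 in PBS and 18.1 and 28.1 in SCF, and JAZF1 region 3 at 49.0 and 40.8 in PBS and 4.90 and 26.9 in SCF. By treatment means GATAD2A region 4 would come second among the losses, with mean ranks of 38.3 ± 21.6 in PBS and 6.71 ± 5.58 in SCF (SD, n = 2 each). The smallest loss gap inside the rule was 10.6 points and the largest outside it was 7.22. In the JAZF1 chain a loss and a gain thus stood in neighbouring regions, 15.5 and 19.99 kb upstream of the gene's start.

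Treatment differences spread as widely within chains as over all members. Gains were found in 17 chains, losses in 11, both in 3 and neither in 21, and no chain had more than 2 of either. Every member was higher in SCF in 4 chains and lower in 2. The SD of the treatment difference was 12.3 points over all members and 12.3 within chains. Chain means were higher in both SCF libraries than in both PBS libraries in 12 of 46 chains (26.1%), against 18.2% of the 1013 chains of 2 or more regions, and lower in 5 (10.9%), against 15%.
The widest separation upwards was at SLC7A10, with library means of 28.6 and 31.3 in PBS and 40.9 and 39.5 in SCF, a gap of 8.18 points. This chain lay 47.7 kb from the start of CEBPA, a myeloid transcription factor gene. The GFI1B chain had means of 29.5 and 30.6 in PBS and 38.2 and 41.3 in SCF, and all 4 of its regions had a higher SCF mean. The BTN3A2 chain followed with a gap of 5.71 points, the ECE1 chain with 4.69 and the HIRA chain with 4.27. The NPRL3 chain came next with 4.25.
The widest separation downwards was at E2F2, with means of 52.6 and 57.5 in PBS and 35.2 and 45.6 in SCF and all 4 regions lower in SCF. The gaps of the other 4 were 3.20 points over GMPPA, ASIC4 and CHPF, 2.65 at ROR2, 1.12 at ZSWIM4 and 0.94 at SGMS1. In most chains the 4 library means overlapped between treatments. Regions 3 and 4 of the ROR2 chain share repeated sequence, with alignments of 82.3% to 86.8% identity, so reads at them may not be placed with certainty.

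**Figure D4:**
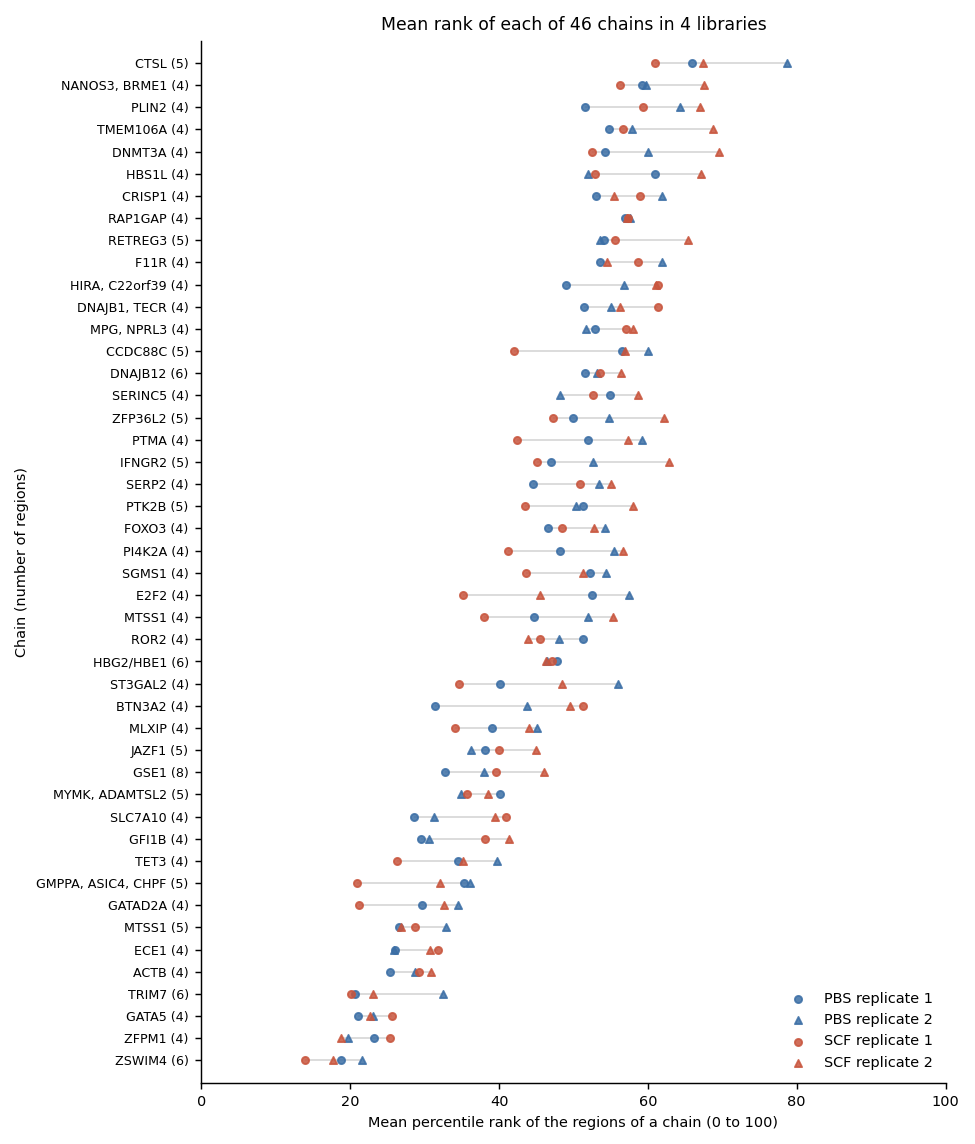
Mean percentile rank over the regions of each of the 46 chains, 1 point per library (blue PBS, red SCF; circles replicate 1, triangles replicate 2), ordered by the mean of the 4; the number of regions is in parentheses. Red and blue points separate at 12 chains with SCF above, such as SLC7A10 and GFI1B, and at 5 with PBS above, such as E2F2.

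The rule kept only regions called in every library, so regions lost or gained as peaks were looked for between the members. The spans held 240 merged regions in all, of which 34 were not members. Of these, 8 were called in all 4 libraries but had a start site within 1 kb, in 7 chains, and 21 were distal and called in 1 to 3 libraries, in 17 chains. Among those 21, 2 had a peak in each SCF library but none in PBS, where 3.45% of all partly called distal regions were. One lay in the HBS1L chain at chr6:135414642-135414932, with SCF ranks of 1.77 and 0.521, and one in the ZFPM1 chain, with ranks of 0.506 and 3.66. The reverse held for 1 region, also in the ZFPM1 chain, with PBS ranks of 1.43 and 1.18, where the share over all partly called distal regions was 4.65%. These were among the weakest peaks of their lists.

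Words were searched on both strands within 100 bp of the summit, a window of 201 bp. The GATA word was in 73 members, or 35.4% (95% Wilson interval 29.2 to 42.2, counting error only), against 43.6% of the other distal regions and 7.26% of regions near start sites. The share was 44.5% in regions with no neighbour, 41.2% in pairs and 38.4% in chains of 3. The composite of an E-box and a GATA word (CTG at a fixed distance before GATAA), the site of the TAL1 and GATA1 complex, was in 3.40% of members and 7.45% of the other distal regions. Median GC content within the window was 54.2% in members and 50.2% in the other distal regions, and its part in the word shares was not tested. The AP-1 word was in 23 members, or 11.2% (7.56 to 16.2), against 12.1%.
The EGR word (GCGTGGG), bound by the zinc finger factor EGR1, was in 4.37% of members and 2.60% of the other distal regions, with an interval of 2.32 to 8.09 for the members. The KLF/SP words (CCACACCC or CCGCCCC), bound among others by the erythroid factor KLF1, were in 12.1% and 11.0%. The ETS word (CCGGAAG) was in 2.43% and 1.93%, and the RUNX word (TGTGGTT) in 6.80% and 5.74%. The E-box (CANNTG) was in 68.9% and 69.3%. The CTCF word (AGGNGGCGC) was less frequent, in 1 member (0.485%) against 2.30%. These are matches of letters and say nothing on binding.

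A GATA word was present in at least 1 member of 34 chains, in at least 3 members of 11, and in every member of 1, the chain at F11R, which encodes a junctional adhesion molecule. An AP-1 word was present in 17 chains, and 9 chains held neither. Both words were in 11 members, among them PLIN2 region 1. The chain beside RETREG3 held an AP-1 word in 3 of 5 regions, and its region 2, with a GATA word in the same window, ranked at 52.8 and 47.9 in PBS and 66.8 and 67.1 in SCF. The JAZF1 chain held a GATA word in 4 of 5 regions, with 3 such words in region 2, which ranked at 15.7 and 11.3 in PBS and 29.9 and 28.2 in SCF. Of the 19 gain members, 4 held the AP-1 word, 9 the GATA word and 1 the EGR word. Of the 12 loss members, 2, 5 and 0 did. Of the other 175 members, 17, 59 and 8 did.

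**Figure D5:**
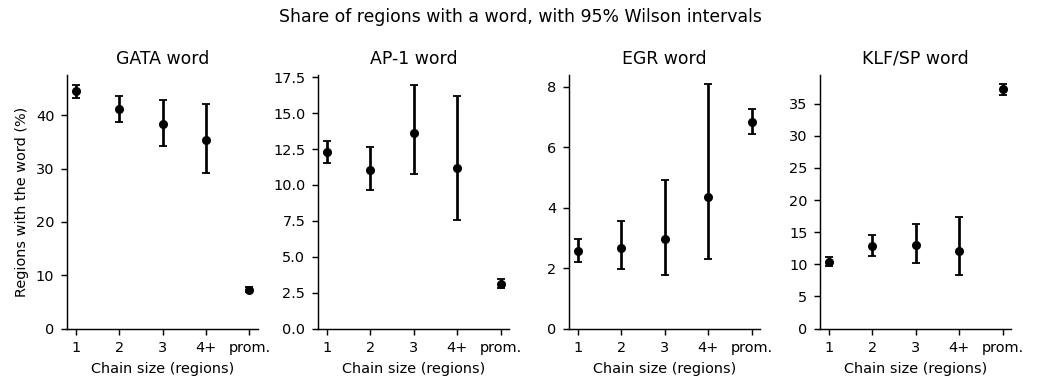
Percent of regions with the word within 100 bp of the summit, for distal regions with no neighbour (1), in pairs (2), in chains of 3 and in chains of 4 or more (4+), and for regions near start sites (prom.); bars are 95% Wilson intervals. The GATA word falls from 44.5% to 35.4% from left to right among distal regions, and the members' intervals for AP-1, EGR and KLF/SP overlap those of the other distal classes.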

How the data were processed

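Peak lists of the 4 sgControl ATAC-seq libraries were used. According to the methods and the submitters' processing notes, the authors sequenced paired ends, used bcl2fastq, Bowtie2, SAMtools and the ENCODE ATAC-seq pipeline, and called peaks per library. The methods name build hg38, but the deposited lists name hg19 in their headers, and all peaks ended inside GRCh37, so coordinates were read as hg19. Peak names carry replicate numbers that differ from the labels. The labels were used. The deposited lists give a whole-number score, not used here, a ratio (fold enrichment of summit over local background), and both the p-value and the q-value as −log10. The authors had applied a q-value threshold of 0.05.

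Regions, distances and words were computed with Python 3.11.15 and pandas 2.3.3, with start sites from GENCODE release 44 lifted to GRCh37. Distances given as upstream or downstream were counted from the outer end of the annotated gene, so other start sites can lie nearer. Summit pileups and local backgrounds were recovered as the whole number that gives both the deposited fold enrichment, with a pseudocount of 1, and the −log10 p under a Poisson distribution, to a relative error of 0.0001, in 100% of members. Where a library had several peaks in a region, the one of highest rank was used. The authors' comparison of reads (MAnorm) needs reads and was not run. limma 3.58.1 (R 4.3.3) was run on quantile-normalised log2 fold enrichment, and the rule and the fit were tested on simulated data. Peaks on other sequences than the 24 chromosomes (54 to 66 per list) were left out. Named were the 10 chains with most regions, the 5 with the highest mean rank, the 5 with the widest separation in each direction, the 5 members with the largest gain and loss, and list genes overlapped by a chain. Other members and chains named were chosen after their values were seen. The members and lists were chosen with earlier results of these data known. Some genes and sequences are not reported here. Alternatives were other chaining distances, chain sizes, start site rules, coverage and q thresholds, equal numbers of peaks, other rank gaps, ranks by p, wider word windows, other centring, the replicate number as a block, and leaving out each library.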

Additional observations from a re-analysis of the deposited data

How the results depend on the processing

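The number of members and chains followed the rule. Chaining at 5 kb gave 13 members in 3 chains, 25 kb gave 868 in 180, chains of 3 or more gave 677 in 203, chains of 5 or more gave 82 in 15, protein-coding start sites alone gave 416 in 91, a q threshold of 5 on the −log10 scale gave 85 in 20, and coverage of 50% of the region in each library gave 129 members. Leaving out 1 library gave 226 to 297 members in 50 to 67 chains. Gains numbered 0 at 5 kb, 33 with protein-coding start sites, 2 with the q threshold, 12 with equal numbers of peaks, 2 with a gap of 20 points and 12 ranked by p. Losses numbered 0, 20, 0 and 7 under the first 4 of these, and 20 and 3 with gaps of 5 and 20 points. Leaving out 1 library gave 30 to 49 gains and 22 to 45 losses. Shares of gains and losses over all regions were not computed for these alternatives. SCF-only regions numbered 0 at 5 kb, 1 with the q threshold, 1 with equal numbers of peaks and 3 to 6 with 1 library left out. PBS-only regions numbered 0 at 5 kb, 2 with the q threshold and 1 to 8 with 1 library left out. The difference in median member rank turned to -0.733 at 5 kb, -0.307 with the q threshold and -1.01 ranked by p, and ran from -1.61 to 4.04 with 1 library left out; the cause was not tested. The GATA share was 23.1% at 5 kb, and 57.8% with 250 bp on each side of the summit, where the AP-1 share was 24.3%. The limma fit called 0 members under every alternative run. With the replicate number as a block it called 0 members and gave 28 an unadjusted p under 0.05. Deviations of PBS replicate 1 and SCF replicate 1 from their group means correlated at 0.0114. The labels do not say whether same-numbered libraries share a batch, and this was not tested. The lowest summit pileups of members were 6 to 10 fragments in the 4 libraries, and the effect of depth was not tested.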

Other observations

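Erythroid genes just missed by the chains were looked up under the looser rules. With chains of 3 or more, 8 of the 27 erythroid transcription factor genes were overlapped in place of 4. This rule raised the chains from 46 to 203, and the share of all protein-coding genes overlapped was not computed for the alternatives. Those added were GATA2, LMO2 and NFE2, factors of the early erythroid and stem cell programme, and MYB. ANK1, the gene of the membrane anchor ankyrin, was then the only red cell membrane gene overlapped. With only protein-coding start sites, NFE2 and the immediate early gene JUNB were added. Without PBS replicate 1, GATA2 and PIEZO1, a mechanosensitive channel gene of red cells, were overlapped, and without SCF replicate 1, MYB and the immediate early gene BTG2 were. Stricter rules removed erythroid factors. None of the 27 was overlapped with chaining at 5 kb or with chains of 5 or more, and 3 were with start sites excluded to 2 kb (GFI1B lost), with 50% of the region covered in each library (ZFPM1 lost) and with the q threshold (E2F2 lost). The long annotated body of HBE1 and that of HBG2 were overlapped under every alternative of the member rule that was run. This included chaining at 5 kb, which left 3 chains.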
